A study of Mus musculus with 6 samples.

Results

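The immediate early response genes are the genes that a cell switches on first after a stimulus, and 10 of them were examined here in liver: Egr1, Fos, Fosb, Jun, Junb, Jund, Atf3, Ier2, Klf6 and Dusp1. The members are the rows of the deposited count table that carry one of these symbols, and all 10 were found among 32212 rows. The table holds whole-number counts per gene from poly(A)-selected liver RNA, with 1 library for each of 3 WT and 3 CgA-KO mice. All 6 were male mice on a C57BL/6 background, labelled 2 yr old and fed a normal chow diet, and CgA-KO mice lack chromogranin A, the prohormone that the gene Chga encodes. Neither the labels nor the methods give the hour of collection, the feeding state of these mice or the time between death and freezing.

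Immediate early genes need no new protein for their transcription, because the factors that drive them, such as SRF with its ELK partners and CREB, are already present in the resting cell and are switched on by phosphorylation, often through MAP kinases. FOS and JUN proteins pair through leucine zippers to form the AP-1 transcription factor, and EGR1 and KLF6 are zinc finger factors that bind GC-rich DNA. DUSP1 is a phosphatase that removes phosphate from MAP kinases and so limits the signal. In liver, these genes are known for their response to injury, partial hepatectomy, cytokines and growth factors, and their messages are short-lived.

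Library totals ran from 10558616 counts in WT replicate 1 to 31087453 in WT replicate 2. Chga had 0 counts in all 6 libraries, so it cannot check the genotype labels. The tissue label was borne out by 10 hepatocyte markers, Alb among them, which together held between 64645 and 117829 CPM (each library's counts scaled to a common total with TMM factors, trimmed means of log ratios between libraries) in every library. A total of 13867 genes passed a filter on low counts and entered the quasi-likelihood test of edgeR, and p-values were adjusted over all of them by the method of Benjamini and Hochberg. The LFC is the log2 of the fitted ratio of CgA-KO over WT, given with its standard error (SE). A gene is called at an adjusted p under 0.05. Errors of CPM are standard deviations over 3 livers. With 3 livers a genotype, the smallest two-sided p of the exact permutation test is 0.1, which all members without overlap reached.

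Of the immediate early genes, 4 rose in CgA-KO livers by the test: Egr1, Fos, Klf6 and Dusp1. None fell. The filter left 9 of the 10 genes, all but Fosb. Called as higher were 4 of these 9, where 8.60% of all genes tested were called higher and 3.84% lower. The other 5, Jun, Junb, Jund, Atf3 and Ier2, were not called, with adjusted p-values between 0.0549 and 0.150. The fitted LFCs of the 9 genes were all above 0, from 0.65 to 3.45, with a median of 1.39 beside -0.01 over all genes tested. Among all 13867 genes tested, 6846 had a fitted LFC above 0. In 8 of the 9 genes every CgA-KO liver lay above every WT liver, a separation that 19.0% of all genes tested showed in this direction and 33.6% in either direction. The members and the lists below were chosen with earlier results of these data known. Their counts beside the shares over all genes are therefore descriptions, not tests of a group. In bulk tissue, a larger share of the cells that express a gene and more of its RNA per cell cannot be told apart.

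**Figure D1:**
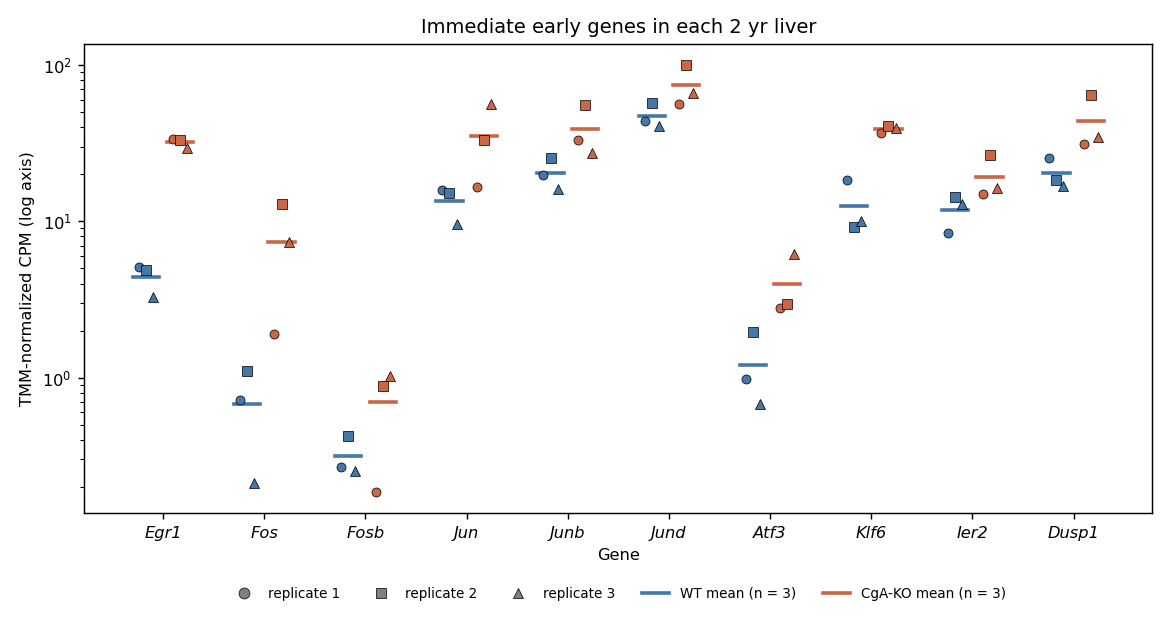
TMM-normalized CPM (log axis) of the 10 immediate early genes in each liver, with WT in blue, CgA-KO in orange, symbols for the replicate number and a line at each mean (n = 3). The CgA-KO livers sit closely together in Egr1 (29.2 to 33.8 CPM) and Klf6 (36.8 to 40.8 CPM) and lie far apart in Fos (1.90 to 12.9 CPM).

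Egr1 had the smallest p-value of the group and the 4th smallest of all genes tested. It encodes a zinc finger factor that growth factors, stretch and cytokines induce within minutes, and lies on chromosome 18 of GRCm38 from 34859823 to 34864984. In the order of the replicate numbers, WT livers had 5.11, 4.89 and 3.30 CPM of Egr1 and CgA-KO livers 33.8, 33.0 and 29.2 CPM. The lowest CgA-KO liver was thus 5.72 times the highest WT liver. The means were 4.43 ± 0.984 and 32.0 ± 2.46 CPM (SD, n = 3 each), an LFC of 2.86 (SE 0.223, adjusted p = 0.00164). In fits that left out each library in turn, the LFC stayed between 2.67 and 3.00 and the adjusted p at or under 0.0115. The levels rested on 57 to 115 counts in WT and 652 to 1040 counts in CgA-KO libraries.

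Klf6, a Krüppel-like factor also known for induction during liver injury, was as even among the CgA-KO livers. It lies on chromosome 13 from 5861482 to 5870394. WT livers had 18.3, 9.23 and 10.04 CPM, with WT replicate 1 the highest, and CgA-KO livers had 36.8, 40.8 and 39.6 CPM. The genotypes did not overlap. The means were 12.5 ± 5.003 and 39.1 ± 2.09 CPM, an LFC of 1.66 (SE 0.265, adjusted p = 0.00778). Klf6 and Egr1 were the members called in every alternative tried, and with each library left out the LFC of Klf6 ran from 1.48 to 2.05.

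Fos showed the largest fitted change of the 9 genes and also the widest spread. It encodes the FOS subunit of AP-1 and lies on chromosome 12 from 85473890 to 85477273. Its WT levels were 0.717, 1.11 and 0.212 CPM, and its CgA-KO levels 1.90, 12.9 and 7.40 CPM. All CgA-KO livers lay above all WT livers, but CgA-KO replicate 2 was 6.76 times CgA-KO replicate 1. The means of 0.678 ± 0.448 and 7.39 ± 5.49 CPM gave an LFC of 3.45 (SE 0.763, adjusted p = 0.0219). WT libraries held only 8, 26 and 5 counts of Fos, against 41, 406 and 165 in CgA-KO libraries. The call was lost without WT replicate 1 (LFC 3.53, adjusted p = 0.0571), WT replicate 2 (4.15, 0.0849), WT replicate 3 (2.97, 0.104) or CgA-KO replicate 2 (2.82, 0.0729).

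Dusp1, the MAP kinase phosphatase of the group, was called closest to the threshold. Its level was 25.4, 18.5 and 16.8 CPM in WT livers, and 31.2, 64.4 and 34.8 CPM in CgA-KO livers, where replicate 2 stood highest. The genotypes did not overlap. From 20.2 ± 4.59 CPM it rose to 43.5 ± 18.2 CPM, an LFC of 1.11 (SE 0.299, adjusted p = 0.0434). It was not called without CgA-KO replicate 2 (LFC 0.75, adjusted p = 0.0908), WT replicate 2 (1.05, 0.147) or WT replicate 3 (0.99, 0.171). Its annotated exons overlap those of Ergic1 on the opposite strand, and whether counting used the strand is not given in the sources used here.

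The 250 bases before the gene start are shown for Fos, Klf6 and Dusp1, the called genes with an entry in the promoter table used, which had entries for 8 of the 10 members. They are RefSeq sequences of GRCm38.p6, written 5′ to 3′ on the strand of the gene and ending 1 base before its RefSeq start: chr12:85473640-85473889 on the plus strand for Fos, chr13:5861239-5861488 on the plus strand for Klf6 and chr17:26508473-26508722 on the minus strand for Dusp1. The RefSeq starts of Klf6 and Dusp1 differ from those of GENCODE, the source of the gene coordinates given here. The Klf6 sequence runs past the GENCODE start at 5861482, and the Dusp1 sequence lies within the GENCODE gene, from 26505590 to 26562128. Capitals mark matches to the motifs searched.
Fos: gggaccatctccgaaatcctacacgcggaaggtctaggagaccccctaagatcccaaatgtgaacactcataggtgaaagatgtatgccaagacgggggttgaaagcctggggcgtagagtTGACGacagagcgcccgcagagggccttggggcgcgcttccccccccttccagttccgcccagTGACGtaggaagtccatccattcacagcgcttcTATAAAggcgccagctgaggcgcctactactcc
Klf6: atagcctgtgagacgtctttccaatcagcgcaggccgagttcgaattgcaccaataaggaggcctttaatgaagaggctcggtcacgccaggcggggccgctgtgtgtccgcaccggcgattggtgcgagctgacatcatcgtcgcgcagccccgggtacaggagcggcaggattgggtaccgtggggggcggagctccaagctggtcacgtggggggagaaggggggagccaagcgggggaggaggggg
Dusp1: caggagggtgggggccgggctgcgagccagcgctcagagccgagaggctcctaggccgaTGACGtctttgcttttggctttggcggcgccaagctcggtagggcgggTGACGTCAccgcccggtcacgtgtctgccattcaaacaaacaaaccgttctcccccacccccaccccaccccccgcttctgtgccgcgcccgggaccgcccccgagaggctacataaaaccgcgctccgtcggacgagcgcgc
The motifs were searched on both strands in windows of 300 bases that also hold the first 50 bases of the gene. They were the CArG box that SRF binds, the cAMP response element TGACGTCA, its half-site TGACG, the AP-1 site TGANTCA, the EGR site GCGNGGGCG and the TATA box TATAAA. The full cAMP response element, which contains the half-site on either strand, was found in Dusp1 and in 1.79% of 32851 windows of the table. The half-site was found in 5 of the 8 members with a window (Fos, Fosb, Junb, Atf3 and Dusp1) and in 20.8% of all windows. The letters TATAAA were matched in Fos at positions -33 to -28 from the gene start. In Junb they were matched at positions 0 to 5, within the gene, and 13.6% of all windows held them. The EGR site was found in Fosb and in 5.55% of windows. No CArG box or AP-1 site was matched in these 8 windows, beside 1.63% and 7.81% of all windows. Sites more than 250 bases before the gene start were not searched, and Egr1 and Ier2 had no window. The search therefore cannot show that a member lacks such a site. A match is a description of the letters, not of binding.

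The JUN genes encode the AP-1 subunits that can pair with FOS proteins or with each other, and none of the 3 was called. Jun had 15.8, 15.2 and 9.57 CPM in WT livers and 16.7, 33.1 and 56.1 CPM in CgA-KO livers. CgA-KO replicate 1 was close to the 2 upper WT livers, and CgA-KO replicate 3 was 3.36 times as high. The LFC was 1.39 (SE 0.402, adjusted p = 0.0549), and without CgA-KO replicate 1 Jun was called (1.76, 0.0261). Without CgA-KO replicate 3 it was 0.91, with an adjusted p of 0.136.

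Junb, which encodes a subunit that often restrains the activity of JUN, had 19.9, 25.2 and 16.1 CPM in WT livers and 33.3, 55.5 and 27.4 CPM in CgA-KO livers. The genotypes did not overlap, though the lowest CgA-KO liver was only 1.09 times the highest WT liver. Its LFC was 0.92 (SE 0.286, adjusted p = 0.0673), and without CgA-KO replicate 3 it was called (1.15, 0.0401). Without CgA-KO replicate 2 it was 0.61, with an adjusted p of 0.140. Its annotated exons overlap those of Prdx2 on the opposite strand.

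Jund, the JUN gene with the highest level in resting cells, had 43.9, 56.8 and 40.8 CPM for WT against 56.0, 99.4 and 66.5 CPM in CgA-KO livers. It was the tested member whose genotypes overlapped, since CgA-KO replicate 1 lay just under WT replicate 2. The LFC was 0.65 (SE 0.250, adjusted p = 0.125). Per kilobase of annotated exon, Jund was the most abundant of the 10 genes in both genotypes, with 28.3 ± 5.09 CPM per kb in WT and 44.4 ± 13.6 CPM per kb in CgA-KO livers. In WT livers the order then ran through Junb (8.87 ± 1.99), Ier2 (7.81 ± 2.02), Dusp1 (6.11 ± 1.39), Jun (4.24 ± 1.08), Klf6 (2.85 ± 1.14), Egr1 (0.989 ± 0.220), Atf3 (0.560 ± 0.310), Fos (0.288 ± 0.191) and Fosb (0.0506 ± 0.0152 CPM per kb). Junb and Ier2, Ier2 and Dusp1, and Atf3 and Fos are neighbours in that order that differed by less than the larger of their SDs. In CgA-KO livers Junb (16.8 ± 6.45), Dusp1 (13.1 ± 5.51), Ier2 (12.6 ± 4.15), Jun (11.1 ± 6.21), Klf6 (8.90 ± 0.477), Egr1 (7.14 ± 0.548), Fos (3.14 ± 2.33), Atf3 (1.84 ± 0.874) and Fosb (0.112 ± 0.0725 CPM per kb) followed Jund. There, of the neighbours from Junb down, Klf6 and Egr1, Egr1 and Fos, and Atf3 and Fosb differed by more than the larger of their SDs. The lengths count every annotated exon once, so they are only a guide to the transcripts in liver.

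Summed over the family, the JUN genes came to 81.1 ± 15.4 CPM for WT against 148 ± 41.1 CPM in CgA-KO livers. Jund made up between 55.2% and 61.3% of that sum in WT livers. In the CgA-KO livers its share was 52.9%, 52.9% and 44.3%, and Jun alone made up 37.4% in CgA-KO replicate 3. The 4 FOS genes (Fos, Fosb, Fosl1 and Fosl2) came to 14.9 ± 5.35 and 25.9 ± 7.39 CPM. Fosl2, a FOS-related subunit that is not one of the 10 genes, held between 86.5% and 96.2% of this sum in WT livers. It held 88.7%, 46.7% and 74.4% in CgA-KO replicates 1, 2 and 3, while Fos held 10.3%, 49.5% and 22.3%. Fosl2 itself was not called (LFC 0.36, SE 0.334, adjusted p = 0.516).

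**Figure D2:**
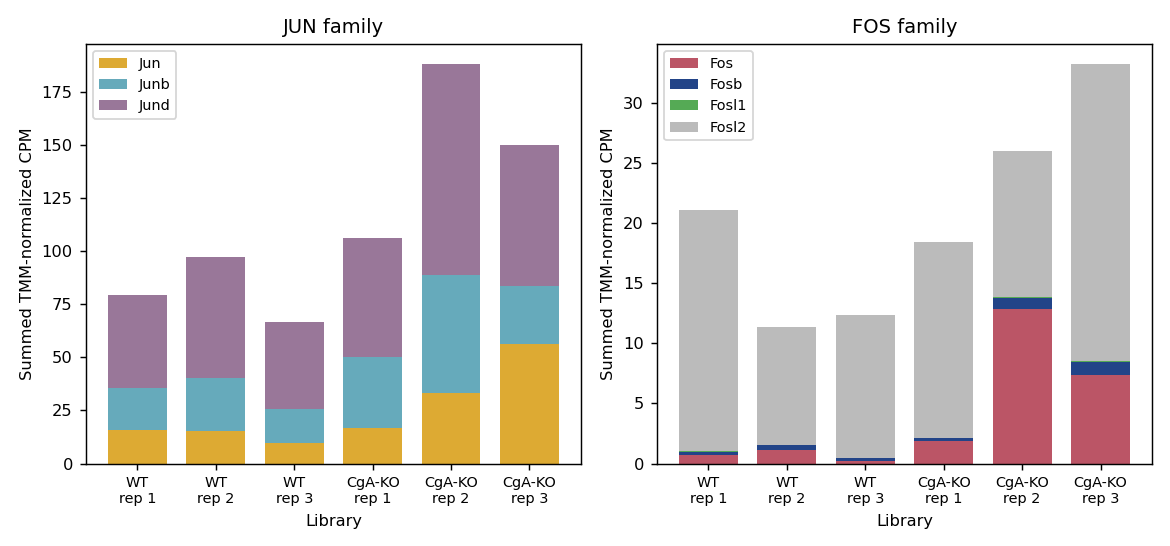
Summed TMM-normalized CPM of the JUN genes (left) and the FOS genes (right) in each library, divided by gene. Jund is the largest part of the JUN sum in all 6 libraries, and Fos makes up 49.5% of the FOS sum in CgA-KO replicate 2 against at most 9.77% in a WT library.

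Fosb, a close relative of Fos, was too low for the test. It had 3, 10 and 6 counts in WT libraries and 4, 28 and 23 in CgA-KO libraries, or 0.269, 0.425 and 0.254 CPM against 0.186, 0.888 and 1.03 CPM. CgA-KO replicate 1 was the lowest of all 6 libraries and the other two CgA-KO livers were the highest, so the genotypes overlapped (exact permutation test, p = 0.4). A level of 3 counts, the limit that a count of 0 allows, corresponded to between 0.0965 and 0.284 CPM before TMM scaling, counting error only.

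Atf3 and Ier2 were not called. Atf3, a stress-induced bZIP factor that can repress its own gene, had 0.985, 1.96 and 0.678 CPM for WT against 2.79, 2.98 and 6.14 CPM in CgA-KO livers, without overlap. Its LFC was 1.70 (SE 0.504, adjusted p = 0.0595). Without WT replicate 2, the highest WT liver, it was 2.28 and called (adjusted p = 0.0473), and without CgA-KO replicate 3 it was 1.28 (adjusted p = 0.169). Ier2, an early response gene of the serum response, had 8.42, 14.3 and 12.96 CPM for WT against 14.99, 26.5 and 16.2 CPM in CgA-KO livers. The genotypes lay side by side without overlap, with the lowest CgA-KO liver 1.05 times the highest WT liver. Its LFC of 0.69 (SE 0.286, adjusted p = 0.150) was not called in any alternative.

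**Figure D3:**
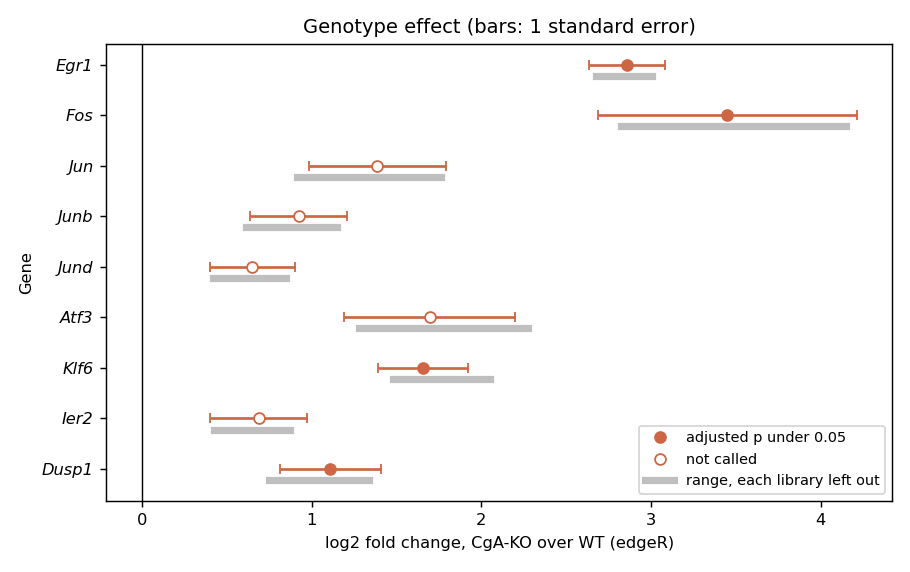
Log2 fold change (LFC) of CgA-KO over WT for the 9 tested immediate early genes, with bars of 1 standard error, filled points for an adjusted p by edgeR under 0.05 and grey bars for the range when each library was left out. All 9 points lie above 0, from 0.65 for Jund to 3.45 for Fos, and the grey bars of all 9 genes stay above 0.

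The members differed in which CgA-KO liver was highest. CgA-KO replicate 2 was highest in 6 of the 10 genes (Fos, Junb, Jund, Ier2, Klf6 and Dusp1), CgA-KO replicate 3 in 3 (Fosb, Jun and Atf3) and CgA-KO replicate 1 in Egr1. CgA-KO replicate 1 was the lowest CgA-KO liver in 8 genes, all but Egr1 and Junb. Among all 6 livers, WT replicate 3 was the lowest in 7 of the 10 genes. Without CgA-KO replicate 2, edgeR called 2 of the 9 genes, Egr1 and Klf6, and the same 2 without WT replicate 3. The calls over all genes also fell, from 1726 with all libraries to 976 and 394 in these fits.

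DESeq2 called 7 members, the 4 above with Jun, Junb and Atf3, where 10.5% of its genes were called higher. With library size alone as the scale, edgeR called 8 of the 9 genes, where 9.32% of all genes were called higher. That scaling moved the median of all genes from -0.01 to 0.26, and the median of the 9 genes to 1.65.

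Of 36 other immediate early and early response genes, 32 were tested, and 8 rose and 1 fell in CgA-KO livers, at a median LFC of 0.66. The shares over all genes tested were 8.60% called higher and 3.84% lower. Btg2, an antiproliferative gene, rose from 5.77 ± 2.10 to 30.5 ± 6.32 CPM, an LFC of 2.42 (SE 0.288, adjusted p = 0.00355). It had 8.15, 5.02 and 4.15 CPM for WT against 29.2, 37.4 and 25.0 CPM in CgA-KO livers, and was the only one of the 9 called in every fit that left out a library. Nr4a1, an orphan nuclear receptor, rose from 1.63 ± 0.994 to 7.75 ± 2.13 CPM (LFC 2.31, adjusted p = 0.0140). Ier5 (1.31, 0.0166), Ier3 (1.85, 0.0169), Btg1 (0.95, 0.0246) and the small GTPase gene Rhob (1.02, 0.0281) followed by p-value. The genotypes did not overlap in any of these 6 genes, a separation that 19.0% of all genes tested showed in this direction. Egr2 and Socs3 were the other two called higher. Without WT replicate 3, 1 gene of the list was called higher, and 4 were without WT replicate 2, CgA-KO replicate 1 or CgA-KO replicate 2.

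The 1 gene of that list that fell was Maff, singled out after its values were seen. It encodes a small MAF protein without an activation domain, and had 7.17, 6.21 and 7.71 CPM for WT against 1.72, 3.23 and 3.54 CPM in CgA-KO livers (LFC -1.31, adjusted p = 0.0318). With any 1 library left out it was not called (adjusted p from 0.0509 to 0.130). Zfp36, which encodes an RNA-binding protein that speeds the decay of many early messages, was the most abundant uncalled gene, with 50.8 to 103 CPM for WT against 73.0 to 168 CPM in CgA-KO livers (LFC 0.44, adjusted p = 0.466). Plk3 (-0.70, 0.116) and Trib1 (0.12, 0.757) were the next most abundant.

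**Figure D4:**
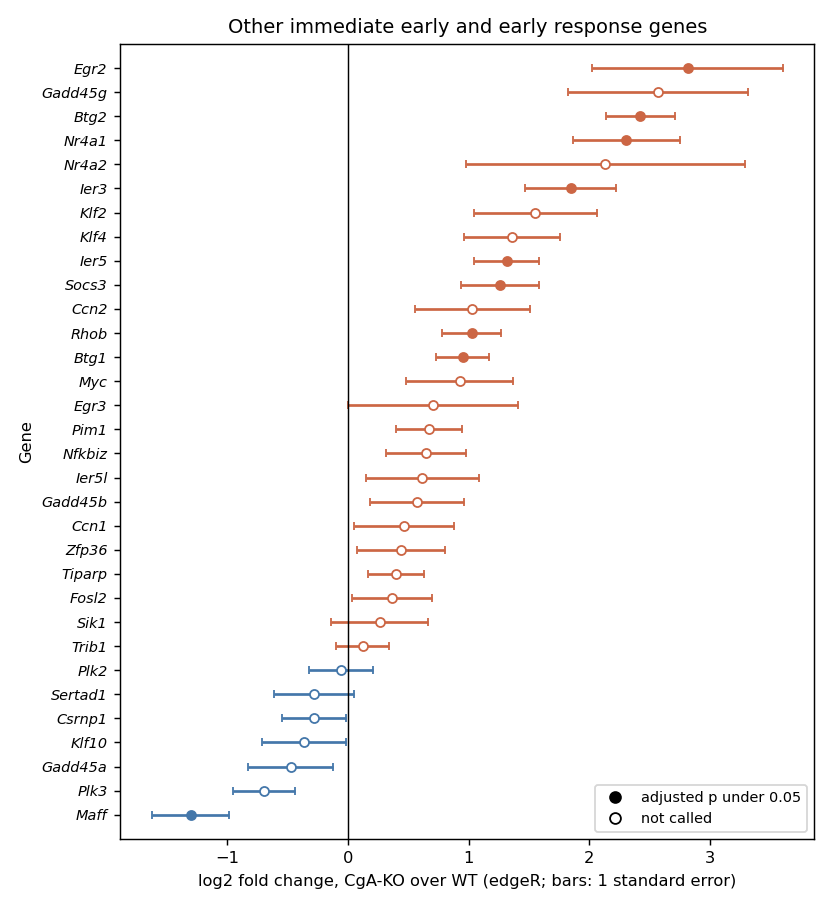
Log2 fold change (LFC) of CgA-KO over WT for the 32 tested genes of the list of other immediate early and early response genes, with bars of 1 standard error and filled points for an adjusted p by edgeR under 0.05. In all, 25 of the 32 points lie above 0, and of the 9 called genes only Maff lies below. Among all 13867 genes tested, 6846 had an LFC above 0.

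Among 14 bZIP genes whose proteins pair or compete with FOS and JUN, 4 rose and none fell (median LFC 0.57). Of all genes tested, 8.60% were called higher and 3.84% lower. Batf, a factor of lymphoid and dendritic cells, had 0.358, 0.425 and 0.296 CPM for WT against 1.95, 3.42 and 3.18 CPM in CgA-KO livers, an LFC of 2.97 (SE 0.438, adjusted p = 0.00603). Jdp2, which encodes a repressor that dimerizes with JUN, followed with 2.05 (adjusted p = 0.0152), and Batf3 with 1.93 (0.0284) and Batf2 with 1.94 (0.0351). The abundant Mafg, Cebpb and Cebpg were not called (LFCs -0.28, -0.01 and -0.40). Batf was called with any 1 library left out. It was the 1 gene of the list called without WT replicate 2, WT replicate 3 or CgA-KO replicate 1, and 2 were called without CgA-KO replicate 2.

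Of 11 factors and co-factors that act at immediate early promoters, among them Srf, Elk1, Elk4, Creb1 and the EGR co-repressor genes Nab1 and Nab2, edgeR called 0, with 2 at an unadjusted p under 0.05 (Mrtfa and Nab2) and 1 by DESeq2 (Mrtfa). Over all genes tested, 12.4% were called by edgeR in either direction, and 4032 of the 13867 had an unadjusted p under 0.05. The median LFC of the 11 was 0.08. The most abundant, Nab1, Elk4 and Crtc2, had LFCs of -0.46, -0.05 and 0.08 (adjusted p = 0.244, 0.909 and 0.840), and Srf, singled out after its values were seen, had -0.02 (SE 0.203). Of 15 MAP kinase genes, Rps6ka3, which encodes the kinase RSK2, rose from 9.66 ± 1.97 to 20.2 ± 2.51 CPM (LFC 1.07, adjusted p = 0.0163). Mapkapk2, a kinase gene downstream of p38, also rose (0.75, 0.0395), and Map2k3, whose product activates p38, fell (-0.76, 0.0220). Each of these 3 lost its call in at least 1 fit without a library, and all 3 without WT replicate 3. The 3 calls among 15 genes stand beside the 12.4% of all genes. The abundant Map2k2 and Mapk14 were not called (-0.37 and 0.11, adjusted p = 0.296 and 0.728). Of 8 other dual-specificity phosphatase genes tested, edgeR called 0, with 4 at an unadjusted p under 0.05 and 1, Dusp8, by DESeq2, and all 8 fitted values lay above 0 (median 0.71). The most abundant of them, Dusp16, Dusp6 and Dusp7, had LFCs of 0.02, 0.57 and 0.86 (adjusted p = 0.947, 0.159 and 0.173). Over all genes, 6846 of the 13867 tested had a fitted LFC above 0, and DESeq2 called 2579 of 15465 in either direction.

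Of 15 tested genes that textbooks list as targets of AP-1 or EGR1, 5 rose and none fell by edgeR, at a median LFC of 1.16. These counts stand beside 8.60% of all genes called higher and 3.84% lower. Cd44, an adhesion receptor gene of leukocytes and other cells, rose from 6.27 ± 2.87 to 51.6 ± 21.1 CPM (LFC 3.07, SE 0.410, adjusted p = 0.00484). Tgfb1 rose from 6.80 ± 2.52 to 26.8 ± 1.86 CPM (2.00, 0.00484), and Icam1 from 14.1 ± 3.06 to 31.3 ± 4.53 CPM (1.16, 0.0128). These 3 were called with any 1 library left out, and made up the 3 calls left without WT replicate 3 or CgA-KO replicate 2, while the matrix metalloproteinase genes Mmp14 (0.89, 0.0285) and Mmp9 (2.35, 0.0331) were not. The abundant Vegfa (-0.93, adjusted p = 0.0637), Ccnd1 (-0.28, 0.522) and Mmp12 (0.32, 0.776) were not called by edgeR. DESeq2 called 7 genes of the list higher, where 10.5% of its genes were, and Vegfa lower (adjusted p = 0.00879). Without WT replicate 2, edgeR also called Vegfa lower. Many of the list are also expressed by macrophages and other leukocytes.

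The heat shock genes encode chaperones that help proteins fold. Of 10 tested, 0 rose by edgeR or DESeq2, and 1, Hsph1, fell by edgeR (3 by DESeq2), from 28.5 ± 9.34 to 11.9 ± 3.23 CPM (LFC -1.26, adjusted p = 0.0254, lost without WT replicate 1 or 2 or CgA-KO replicate 2 or 3, where it ran up to 0.0882). Over all genes tested, 8.60% were called higher and 3.84% lower by edgeR. The median LFC of the list was -0.42. The most abundant genes not called by edgeR, Hspa8, Hspd1 and Hspe1, had LFCs of -0.06, -0.51 and -1.10 (adjusted p = 0.927, 0.136 and 0.0560). Besides Hsph1, DESeq2 called Hspd1 (adjusted p = 0.0363) and Hspe1 (0.00803) lower. Over all genes, DESeq2 called 2579 of 15465 in either direction. Hspe1 was also called lower by limma-voom, with another filter and without CgA-KO replicate 3. The stress-inducible Hspa1a and Hspa1b, singled out after their values were seen, had 0.46 and -0.28 (adjusted p = 0.798 and 0.755).

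Markers of other liver and blood cells moved with the genotype beside the immediate early genes. For the marker counts here and in the next paragraph, the shares over all genes tested were 8.60% called higher and 3.84% lower. Of 10 Kupffer cell and macrophage markers, 9 rose (median LFC 3.04), and their summed level was 131 to 342 CPM for WT against 1431 to 2057 CPM in CgA-KO livers. Of 8 T and NK cell markers 6 rose, with summed levels of 4.13 to 11.2 CPM for WT against 29.3 to 138 CPM in CgA-KO livers. Of 6 tested neutrophil markers 4 rose, with sums of 6.82 to 12.7 CPM for WT against 46.8 to 244 CPM in CgA-KO livers. The T and NK and the neutrophil sums were highest in CgA-KO replicate 2, the liver that was also highest in 6 of the 10 immediate early genes. Among the CgA-KO livers, the stellate, endothelial and hepatocyte sums were highest in replicate 2 as well. The bile duct, B and plasma and red blood cell sums were not. The Kupffer sum was highest in CgA-KO replicate 1 (2057 CPM, against 1942 CPM in CgA-KO replicate 2 and 1431 CPM in CgA-KO replicate 3), the liver that was the lowest CgA-KO liver in 8 of the 10. The neutrophil genes Ly6g, Retnlg, Mmp8 and Ngp were at 0 in at least 1 library.

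Of 8 stellate cell markers 5 rose, with sums of 157 to 215 CPM for WT against 281 to 439 CPM in CgA-KO livers. Of 8 endothelial markers 2 rose and 1 fell, with sums of 121 to 157 and 134 to 200 CPM (199.8 at the highest). None of the 10 hepatocyte, 6 bile duct and 6 B and plasma cell markers was called by edgeR at an adjusted p under 0.05, with 1, 1 and 0 at an unadjusted p under 0.05 and 1, 0 and 0 called by DESeq2. Among all 13867 genes tested, 4032 had an unadjusted p under 0.05, and DESeq2 called 2579 of 15465 genes. Of 5 tested red blood cell genes, 2 rose and 1 fell, and Slc4a1 was at 0 in at least 1 library. The part of these cells in the levels of the immediate early genes was not tested.

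**Figure D5:**
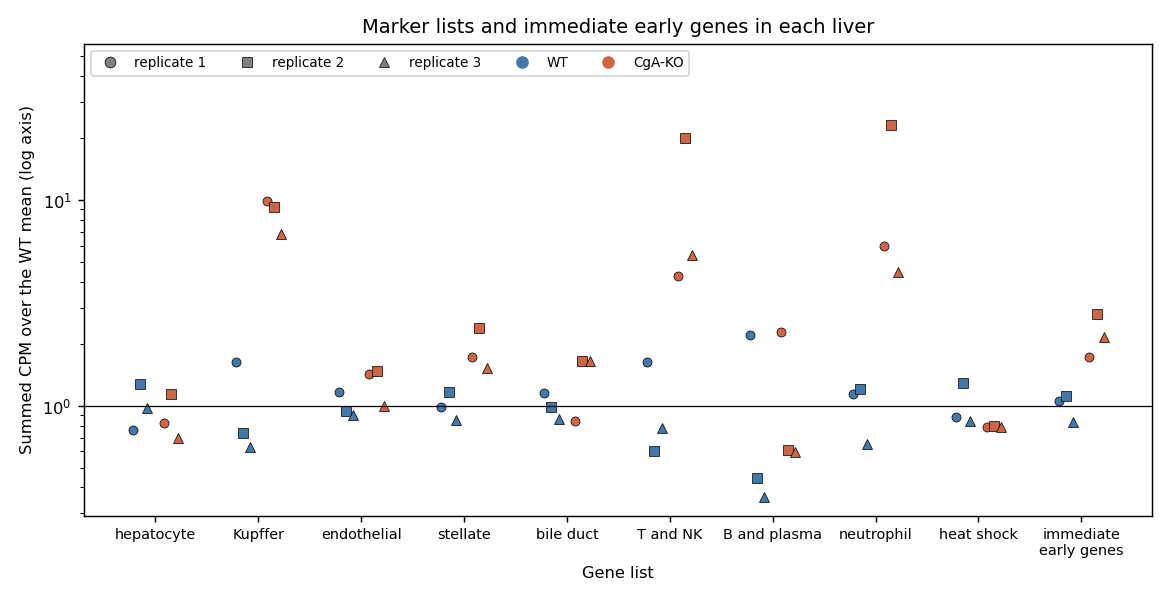
Summed TMM-normalized CPM of each marker list, of the heat shock list and of the 10 immediate early genes in each library, divided by the WT mean of that list (log axis, line at 1). The 10 immediate early genes sum to between 111 and 148 CPM in WT and between 228 and 370 CPM (369.6 at the highest) in CgA-KO livers, and the Kupffer, T and NK, and neutrophil lists lie further above 1 in CgA-KO livers than the immediate early genes do.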

How the data were processed

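Livers of 3 WT and 3 CgA-KO mice each gave 1 poly(A)-selected library. Reads were assigned to GRCm38 transcripts by the authors with Salmon 1.4.0, and the authors deposited whole-number counts per gene symbol. The step from transcripts to genes is not given in the sources used here. All 6 columns were mapped to a sample by their names.

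The counts were tested with edgeR 4.0.16 (filterByExpr with a minimum count of 10, TMM factors, robust quasi-likelihood fit, two-sided test, Benjamini-Hochberg adjustment). SEs were computed as the absolute LFC (log2 fold change) over the root of the F statistic. A prior count of 2 entered log2 CPM. Totals of 10558616 to 31087453 counts limit low genes, and floors cover counting error only. The p-values weigh the genotype difference against the spread between libraries of the same genotype.

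The members and lists were chosen with earlier results of these data known. All 10 members were named. Of each other list of early, upstream, target and heat shock genes, up to 6 called genes with the smallest p and up to 3 uncalled genes with the highest mean CPM were named, besides the 5 genes most like the members. Marker lists are given by counts and sums. One item is not reported here. Coordinates and exon lengths are from GENCODE M21 on GRCm38.

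Alternatives were DESeq2 1.42.0, limma-voom (limma 3.58.1), 3 other scalings, 2 other filters, summed repeated symbols, a replicate block, a threshold of 0.01, and each library left out. The procedure was tested on simulated data.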

Additional observations from a re-analysis of the deposited data

How the results depend on the processing

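Egr1 and Klf6 kept their direction and their call in all 17 alternatives, and all 9 tested members kept an LFC above 0. The median of the 9 ran from 1.18 to 1.73. Groups of 3 livers were not screened for outliers.

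The count of members called was 4, and 7 with DESeq2, 8 with library size alone, 2 at an adjusted p under 0.01 and between 2 and 5 with each library left out. Over all genes 1726 were called, 360 at 0.01 and between 394 and 2126 with a library left out. Over the 7 other lists the count was 22, 4 at 0.01 and between 6 and 25 with a library left out. In the order described above, these lists held 32, 14, 11, 15, 8, 15 and 10 tested genes. Of all genes tested, 12.4% were called.

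Fos was not called with limma-voom (LFC 3.44), with a filter on a total of at least 1 count (3.45), at 0.01 (3.45) or without both WT replicate 1 and CgA-KO replicate 2 (2.87), a setting chosen after seeing the data, and with at least 10 counts in every library it was not tested. Its range with a library left out was 2.82 to 4.15. Called under DESeq2 were also Jun (1.37), Junb (0.90) and Atf3 (1.68), and under library size alone Jun (1.65), Junb (1.22), Jund (0.94) and Atf3 (2.03). Atf3 was also called with a total of at least 1 count (1.69) and with at least 10 counts in every library (1.73). Dusp1 was not called at 0.01 (1.11). With a library left out, Jun ran from 0.91 to 1.76, Junb from 0.61 to 1.15, Atf3 from 1.28 to 2.28 and Dusp1 from 0.75 to 1.34. The cause of these changes was not tested.

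A replicate block over the label numbers gave Dusp1 1.06, not called, and Junb 0.88, called, with 1498 genes called in all. What the shared numbers stand for is not given in the labels or methods. The deviations of same-numbered libraries from their genotype means correlated at 0.20, 0.01 and -0.07 over genes. Libraries with unlike numbers correlated between -0.26 and 0.23. With 3 libraries a genotype, these values cannot decide whether the numbers mark a pairing.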

Other observations

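Among 9929 other genes with a mean of at least 5 CPM, the 5 whose log2 CPM followed the mean z-score of the 9 tested immediate early genes most closely over the 6 libraries were Psap (Pearson r = 0.998), Irgm2 (0.997), Hpse (0.994), Ssb (0.992) and Leprotl1 (0.989). The correlation is a description over 6 libraries that share the genotype difference, and 109 genes had r over 0.95. Psap, which encodes the precursor of the lysosomal saposins, had 294, 329 and 249 CPM for WT against 452, 649.6 and 572 CPM in CgA-KO livers. Psap was chosen by this correlation, so the choice itself favours the order of the libraries shared with the immediate early genes as a group. In that order CgA-KO replicate 2 was highest and WT replicate 3 lowest. Ssb was the only one of the 5 not called by edgeR (LFC 0.32, adjusted p = 0.212). Irgm2, an interferon-induced GTPase gene, had 42.1, 46.5 and 31.6 CPM for WT against 77.7, 134.9 and 92.7 CPM in CgA-KO livers.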
